A study of Mus musculus with 4 samples.

Results

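RNA levels of 10 genes of the DNA damage checkpoint and of its link to the cell cycle were examined in cultured mouse pachytene spermatocytes. The genes were Atm, Prkdc, Chek1, Chek2, Clspn, Cdc25a, Cdc25b, Cdc25c, Wee1 and Pkmyt1, and were taken by their symbols from a table of 23420 genes, in which each was found once. The table holds 4 RNA-seq libraries. Wild-type pachytene spermatocytes, sorted by FACS from the testes of C57BL/6 mice of 23 weeks of age, were cultured for 24 h with DMSO (Ctrl, 2 libraries) or with 10 μM AZ20 (AZ20, 2 libraries), which inhibits the kinase ATR, and each library was made from 15000 cells. The methods of the study state that cells of a mouse were divided between treatment and control. Replicate 1 of AZ20 was therefore taken to pair with replicate 1 of Ctrl, and replicate 2 with replicate 2. The methods and sample titles do not state that the numbers match by mouse. The study asked whether the silencing of the sex chromosomes in male meiosis needs continued ATR signaling. The comparison described here is that of the RNA of the checkpoint genes with and without the inhibitor.

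ATR, ATM and DNA-PKcs are related protein kinases that signal DNA damage. ATR, helped by the adaptor Claspin, phosphorylates and activates CHK1, and ATM activates CHK2. CHK1 and CHK2 act on the CDC25 phosphatases, which remove inhibitory phosphates from cyclin-dependent kinases, while the kinases WEE1 and PKMYT1 place those phosphates. In pachytene spermatocytes ATR covers the chromatin of the unsynapsed X and Y chromosomes, and entry into the first meiotic division requires active CDK1. These proteins are regulated largely by phosphorylation and turnover, neither of which is measured by RNA-seq.

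The reads on genes, recovered as whole numbers from the deposited TPM (transcripts per 1000000, a level per length that sums to the same total in each library), numbered 14064362 and 15958954 in Ctrl against 20381677 and 18680961 in AZ20. The 6 pachytene spermatocyte markers summed to between 9740 and 10100 TPM in the 4 libraries. Round spermatid markers, 7 genes such as the protamine gene Prm1, summed to 368 and 151 TPM in Ctrl and to 777 and 252 TPM in AZ20. The 8 spermatogonia markers summed to between 8.26 and 21.2 TPM, with Stra8 and Dmrt1 at 3 reads or fewer in each library. Most of this sum in each library was Uchl1, at up to 20.1 TPM on 88 to 266 reads. Gfra1 was at up to 1.11 TPM. Sertoli cell markers summed to at most 2.22 TPM, with Sox9, Amh, Wt1 and Gata4 at 3 reads or fewer. Most of this sum was Dhh, at 1.34 to 1.68 TPM. Leydig cell markers summed to at most 2.31 TPM, with Cyp17a1, Hsd3b1, Insl3 and Cyp11a1 at 0. This sum was all from Star, at 0.866 to 2.31 TPM. Macrophage markers summed to at most 1.32 TPM, with C1qa at 0 and Cd68 at up to 1.28 TPM. Peritubular myoid cell markers summed to at most 1.61 TPM, with Des at 0 and Acta2 at up to 1.33 TPM. These small sums are of the size of the levels of several of the genes described here, and what part other cells had in those levels was not tested.

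Of the 10 genes, 9 were tested, and 0 of these were called changed by AZ20, beside 0.151% of the tested autosomal genes. Cdc25b was too low to be tested. All 10 genes were low, from 0 to 12.7 TPM. Atr, the gene of the inhibited kinase, by contrast had 89.1 ± 5.73 TPM in Ctrl and 84.2 ± 4.65 TPM in AZ20 (SD, n = 2 each). In Ctrl the mean TPM of Atr was 51.5 times that of Atm and 70.7 times that of Prkdc, 24.4 times that of Chek1 and 112 times that of Chek2. It was 12.4 times that of Wee1 and 10.9 times that of Pkmyt1, the 2 most abundant of the 10. The median of the 9936 tested autosomal genes was 10.2 TPM in Ctrl and 11.0 TPM in AZ20, and the mean of each of the 10 genes lay below it in both conditions.

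**Figure D1:**
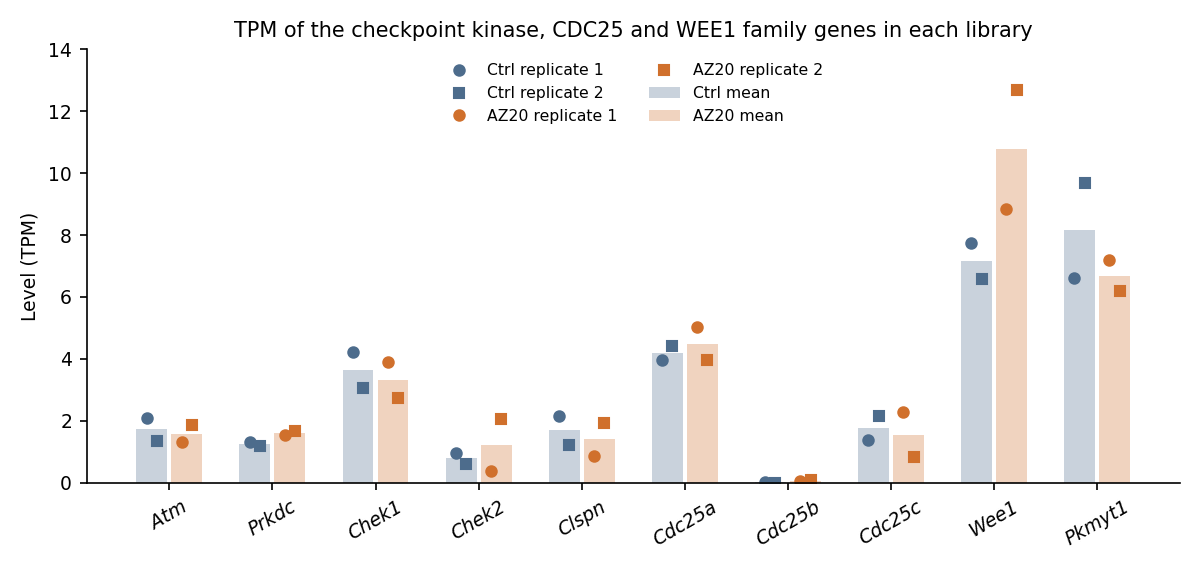
TPM (linear axis) of each of the 10 genes in each library, with bars at the mean of each group and points for the libraries (circles replicate 1, squares replicate 2). Wee1 and Pkmyt1 have the tallest bars, Cdc25b lies at the axis, and the groups are apart for Wee1 (7.74 and 6.59 TPM in Ctrl, 8.83 and 12.7 TPM in AZ20).

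In the order of mean TPM in Ctrl, Pkmyt1 (8.15 ± 2.18) was followed by Wee1 (7.17 ± 0.811), Cdc25a (4.19 ± 0.325), Chek1 (3.65 ± 0.826), Cdc25c (1.76 ± 0.541), Atm (1.73 ± 0.530), Clspn (1.69 ± 0.672), Prkdc (1.26 ± 0.0984), Chek2 (0.794 ± 0.250) and Cdc25b (0.0157 ± 0.0222; SD, n = 2 each). The libraries of Pkmyt1 and Wee1 overlapped, as did those of Cdc25a and Chek1, and those of each of the neighbors from Cdc25c to Prkdc, so that these neighbors did not differ beyond their spread. Wee1 was above Cdc25a, Chek1 above Cdc25c, Prkdc above Chek2 and Chek2 above Cdc25b in both Ctrl libraries. In AZ20 the order of means opened with Wee1, Pkmyt1, Cdc25a and Chek1, whose libraries did not overlap, and the means of Prkdc, Atm, Cdc25c, Clspn and Chek2, from 1.61 to 1.22 TPM, were neighbors whose libraries overlapped.

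A gene was tested with limma on log2(TPM + 1) when its mean TPM exceeded 1 in Ctrl or AZ20. A call needed a change of at least 2-fold in TPM + 1 and an adjusted p under 0.05. The adjustment was by the Benjamini-Hochberg method over the 10316 genes tested. For low genes this rule asks for more than a 2-fold change of TPM itself. Of the 10 genes, 9 were tested, and Cdc25b was below the threshold in both groups. Chek2 passed through its AZ20 mean alone. Of the 9 tested, 0 were called, beside 2.33% of all tested genes and 0.151% of the tested autosomal genes (the 10 genes are all on autosomes). At an unadjusted limma p under 0.05, 0 of the 9 passed, beside 630 of 9936 autosomal genes (6.34%). The log2 change was positive for 4 genes and negative for 5, with a median of -0.075, beside a median of 0.059 over the autosomal genes. Adjusted p ran from 0.677 to 0.975.

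The intervals set how large a change these libraries could have hidden. The standard errors of the log2 changes ran from 0.27 to 0.45. The 95% intervals of 5 genes (Atm, Prkdc, Chek1, Cdc25a and Pkmyt1) lay within a 2-fold change of TPM + 1 in either direction. Those of Chek2, Clspn, Cdc25c and Wee1 reached past it. Adding 1 to the TPM draws the changes of low genes toward 0. With limma-voom on the recovered reads, which adds 0.5 to each count instead, only the intervals of 2 genes, Atm (0.539-fold to 1.54-fold) and Cdc25a (0.628-fold to 1.75-fold), lay within 2-fold, and that of Chek2 ran from 0.244-fold to 4.82-fold. In bulk RNA, fewer cells that express a gene and less of its RNA in each cell cannot be told apart. With 2 libraries against 2, an exact two-sided permutation test of a single value cannot go below p = 0.333.

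**Figure D2:**
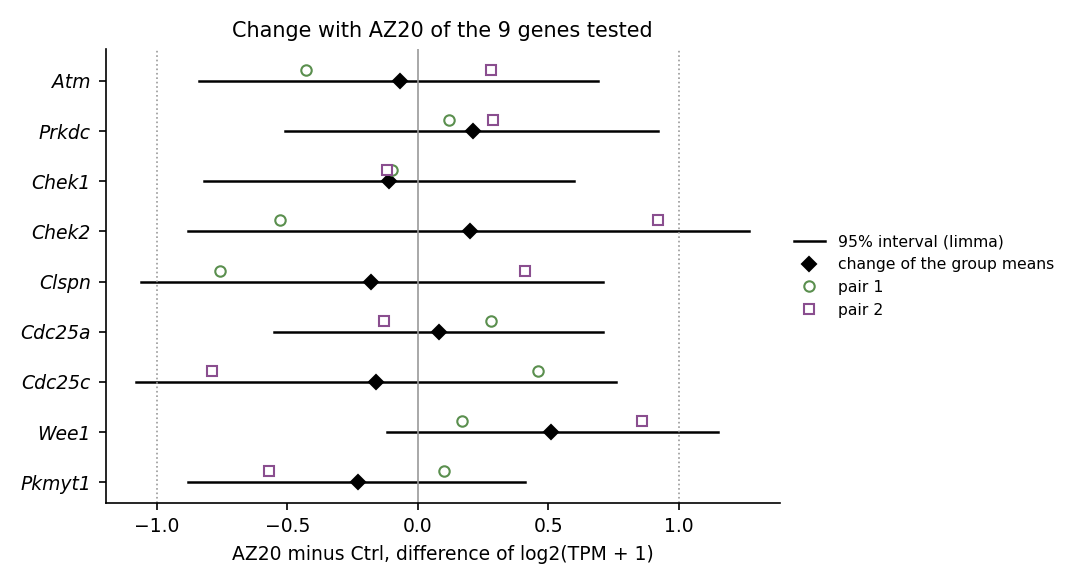
Difference of log2(TPM + 1), AZ20 minus Ctrl, for the 9 genes tested: diamonds are the changes of the group means, lines the 95% limma intervals, open symbols the changes within replicate pair 1 (circles) and pair 2 (squares), and dotted lines mark 2-fold. Each interval includes 0, and the pairs fall on opposite sides of 0 for 6 genes.

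The replicate pairs went the same way for 3 of the 9 genes, Prkdc, Chek1 and Wee1, and opposite ways for the other 6. The groups did not overlap for 2 of the 9, Prkdc and Wee1, both higher with AZ20, beside 36.2% of the tested autosomal genes in either direction.

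Among the kinases that start the signal, Atm (chromosome 9, 53439149 to 53536740, minus strand, GRCm38) encodes the sensor kinase of double-strand breaks. Its level was 2.10 and 1.36 TPM in Ctrl and 1.30 and 1.87 TPM in AZ20, on 187 to 293 reads. The gene length implied by these reads, 11964 bases, exceeds the 9787 exonic bases of the annotation used here, so its read numbers, and the voom interval above, are less certain than those of the other genes. The groups overlapped, with Ctrl above AZ20 in replicate 1 and AZ20 above Ctrl in replicate 2. Its log2 change with AZ20 was -0.07 (SE 0.32, 95% interval -0.84 to 0.69, limma adjusted p = 0.975), at -0.43 in pair 1 and 0.28 in pair 2. Prkdc (chromosome 16, 15637866 to 15842235, plus strand) encodes DNA-PKcs, the catalytic subunit that joins the Ku proteins at broken ends. Its level was 1.33 and 1.19 TPM in Ctrl and 1.53 and 1.68 TPM in AZ20, on 170, 174, 282 and 280 reads. These read numbers were raised by a factor of 2 to match the gene length. The implied length is then 12674 bases, beside 12647 exonic bases in the annotation. Both AZ20 libraries were above both Ctrl libraries, and the replicates lay close together. This gave a log2 change of 0.21 (SE 0.30, 95% interval -0.51 to 0.92, limma adjusted p = 0.910), but of -0.07 after quantile normalization, so its direction depends on the scaling. The Ku genes Xrcc5 and Xrcc6, named here after their values were seen, had 20.6 and 23.9 TPM and 18.1 and 19.9 TPM in the Ctrl libraries, above Prkdc in each.

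Chek1 (chromosome 9, 36708482 to 36727065, minus strand) encodes the kinase that ATR activates. Its level was 4.23 and 3.06 TPM in Ctrl and 3.89 and 2.74 TPM in AZ20, on 120 to 192 reads. Replicate 1 was above replicate 2 in both groups, and each AZ20 library was below its paired Ctrl library, by 0.10 and 0.12 on the log2(TPM + 1) scale (changes of -0.10 and -0.12). The change over the group means was -0.11 on the log2 scale (SE 0.30, 95% interval -0.82 to 0.60, limma adjusted p = 0.958). Clspn (chromosome 4, 126556935 to 126593903, plus strand) encodes Claspin, the adaptor through which ATR reaches CHK1. Its level was 2.17 and 1.22 TPM in Ctrl and 0.870 and 1.94 TPM in AZ20, on 109, 70, 63 and 127 reads. The replicates of each group lay apart, and in opposite orders. The log2 change was -0.18 (SE 0.37, 95% interval -1.06 to 0.71, limma adjusted p = 0.941), at -0.76 in pair 1 and 0.41 in pair 2. Tipin and Timeless, also named after their values were seen, encode the fork protection partners of Claspin. They had 237 and 337 TPM and 2.85 and 2.90 TPM in the Ctrl libraries. Both were above Clspn in each Ctrl library, Tipin by far more than Timeless.

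Chek2 (chromosome 5, 110839979 to 110874145, plus strand) encodes the kinase that ATM activates, and was the gene whose AZ20 replicates differed most among the 9 tested. Its level was 0.970 and 0.617 TPM in Ctrl and 0.367 and 2.07 TPM in AZ20, on 22, 16, 12 and 61 reads. The AZ20 libraries were the lowest and the highest of the 4, and differed 5.63-fold. The 95% Poisson intervals of their reads, which cover counting error only, ran from 0.190 to 0.642 TPM and from 1.58 to 2.66 TPM and did not meet. On the log2(TPM + 1) scale the AZ20 replicates differed by 1.17, against a median difference of 0.38 over the 1134 tested genes of like level (within 1.5-fold of its mean TPM), and the difference exceeded that of 92.9% of them. The log2 change was 0.20 (SE 0.45, 95% interval -0.88 to 1.27, limma adjusted p = 0.949), at -0.53 in pair 1 and 0.92 in pair 2, and -0.15 after quantile normalization. The TPM of Chek2 was 0.229 and 0.202 times that of Chek1 in Ctrl, and 0.0945 and 0.756 times in AZ20. The mean log2 ratio was -2.22 ± 0.132 in Ctrl and -1.90 ± 2.12 in AZ20 (SD, n = 2 each), a difference of 0.314 (exact two-sided permutation test, p = 1.0), and the difference was -1.19 without AZ20 replicate 2.

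**Figure D3:**
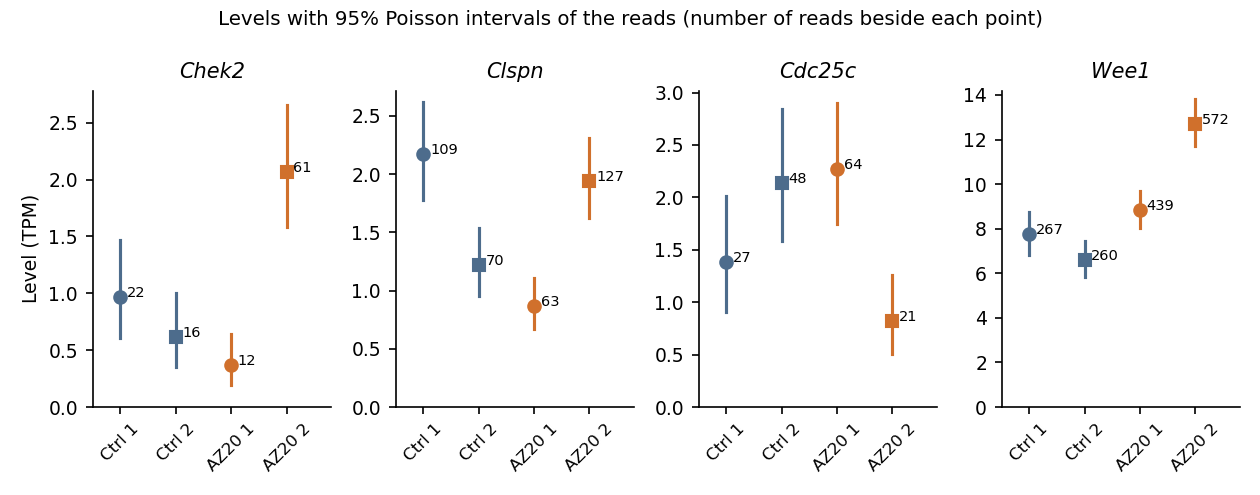
TPM of Chek2, Clspn, Cdc25c and Wee1 in each library (linear axes from 0), with lines for the 95% Poisson intervals of the reads and the number of reads beside each point. These 4 genes were drawn because their AZ20 replicates differed most among the 9 tested (by 1.17, 0.65, 0.84 and 0.48 on the log2(TPM + 1) scale, in the order drawn), and the intervals of those replicates do not meet.

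Promoter sequences from RefSeq (GRCm38.p6) were found for 6 of the 10 genes, Atm, Chek1, Chek2, Clspn, Cdc25a and Cdc25b. The 250 bases before the start are shown for the effector kinases Chek1 and Chek2 and for the phosphatases Cdc25a and Cdc25b, because within each of these pairs one gene was above the other in both Ctrl libraries. Capitals mark the words searched on both strands, which were CCAAT (bound by NF-Y), TTTCCCGC or TTTGGCGC (E2F words) and TTTGAA (the cell cycle homology region, CHR), and which do not overlap in these promoters. Positions are counted as bases before the start. The start is that of the promoter set and can differ from the end of the gene span given above. The bases shown for Chek1 lie wholly inside its span (36708482 to 36727065, minus strand). Those of Atm, Chek2 and Clspn overlap their spans in part.
Chek1, chr9:36726659-36726908, minus strand: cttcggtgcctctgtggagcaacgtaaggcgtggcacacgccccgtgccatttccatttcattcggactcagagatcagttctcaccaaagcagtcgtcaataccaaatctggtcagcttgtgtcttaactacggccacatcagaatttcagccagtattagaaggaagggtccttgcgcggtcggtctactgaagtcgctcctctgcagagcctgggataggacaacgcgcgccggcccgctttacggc
Chek2, chr5:110839733-110839982, plus strand: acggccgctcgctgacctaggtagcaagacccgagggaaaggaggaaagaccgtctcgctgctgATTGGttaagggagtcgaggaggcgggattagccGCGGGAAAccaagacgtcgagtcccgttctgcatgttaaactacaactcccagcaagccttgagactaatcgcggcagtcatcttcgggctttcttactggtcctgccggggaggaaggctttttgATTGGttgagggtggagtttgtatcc
Cdc25a, chr9:109875329-109875578, plus strand: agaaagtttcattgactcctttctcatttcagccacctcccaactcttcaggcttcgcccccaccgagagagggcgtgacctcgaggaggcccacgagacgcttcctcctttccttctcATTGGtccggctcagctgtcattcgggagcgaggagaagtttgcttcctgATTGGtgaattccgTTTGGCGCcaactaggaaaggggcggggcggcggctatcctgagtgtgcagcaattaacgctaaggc
Cdc25b, chr2:131186698-131186947, plus strand: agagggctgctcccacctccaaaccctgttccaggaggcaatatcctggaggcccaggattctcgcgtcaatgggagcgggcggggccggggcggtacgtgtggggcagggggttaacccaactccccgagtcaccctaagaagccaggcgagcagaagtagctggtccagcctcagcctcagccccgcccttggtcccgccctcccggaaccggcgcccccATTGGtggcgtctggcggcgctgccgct
CCAAT was found at 186 and 26 in Chek2, at 131 and 81 in Cdc25a and at 28 in Cdc25b. It was also found at 165 in Atm and at 69 and 21 in Clspn, but not in the bases shown for Chek1. An E2F word was found at 152 in Chek2 and at 67 in Cdc25a, and TTTGAA in none of the 6. Of 32851 promoters of the same length, 33.8% held CCAAT, 1.30% an E2F word and 16.0% TTTGAA. A match is a description of letters and not of binding.

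Of the CDC25 phosphatases, which remove inhibitory phosphates from cyclin-dependent kinases, Cdc25a made up most of the RNA. Cdc25a (chromosome 9, 109875579 to 109893895, plus strand) encodes the member that acts broadly through the cell cycle. Its level was 3.96 and 4.42 TPM in Ctrl and 5.04 and 3.95 TPM in AZ20, on 145 to 266 reads. The AZ20 libraries spanned the Ctrl libraries. The log2 change was 0.08 (SE 0.27, 95% interval -0.55 to 0.71, limma adjusted p = 0.967), and it was -0.18 after quantile normalization.

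Cdc25b (chromosome 2, 131186949 to 131198497, plus strand), which encodes the member needed for the resumption of meiosis in mouse oocytes, was at or near 0. It had 1 and 0 reads in Ctrl (0.0315 and 0 TPM) and 2 and 4 reads in AZ20 (0.0437 and 0.0967 TPM). A count of 0 in the second Ctrl library allows a level of up to 0.0825 TPM (3 reads), and the exact 95% Poisson interval reaches 0.101 TPM. It was not tested, and a difference between groups was not detectable at this depth.

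Cdc25c (chromosome 18, 34732993 to 34751533, minus strand) encodes the member best known for the activation of CDK1 at mitotic entry. Its level was 1.38 and 2.14 TPM in Ctrl and 2.27 and 0.824 TPM in AZ20, on 27, 48, 64 and 21 reads. The AZ20 libraries were again the highest and the lowest of the 4, and differed 2.75-fold, with Poisson intervals of 1.75 to 2.90 TPM and 0.510 to 1.26 TPM. The AZ20 replicates differed by 0.84 on the log2(TPM + 1) scale, more than 82.7% of the 1471 tested genes of like level. The order was the reverse of that of Chek2, which was lowest in AZ20 replicate 1, where Cdc25c was highest. The round spermatid markers were also highest in AZ20 replicate 1 (777 TPM), but in Ctrl they were higher in replicate 1 and Cdc25c in replicate 2. Their part in these values was not tested. The log2 change of Cdc25c was -0.16 (SE 0.39, 95% interval -1.08 to 0.76, limma adjusted p = 0.952), at 0.46 in pair 1 and -0.79 in pair 2.

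Summed over the 3 genes, the CDC25 level was 5.37 and 6.57 TPM in Ctrl and 7.36 and 4.87 TPM in AZ20. Cdc25a held 73.8%, 67.3%, 68.6% and 81.1% of it in the order Ctrl replicates 1 and 2 and AZ20 replicates 1 and 2, and Cdc25b at most 1.99%. The share of Cdc25c was 29.2% ± 4.94 in Ctrl and 23.9% ± 9.83 in AZ20 (SD, n = 2 each), a difference of -5.28 percentage points (exact two-sided permutation test, p = 0.667). Without AZ20 replicate 2 the difference was 1.67 points, so its direction rests on that library.

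Wee1 (chromosome 7, 110122046 to 110143286, plus strand) encodes the nuclear kinase that holds CDK1 inactive, and had the largest change of the 9 tested genes. Its level was 7.74 and 6.59 TPM in Ctrl and 8.83 and 12.7 TPM in AZ20, on 267, 260, 439 and 572 reads. Both AZ20 libraries were above both Ctrl libraries, and AZ20 replicate 2 stood well above the other 3. The ratio of mean TPM was 1.51. With AZ20 the log2 change was 0.51 (SE 0.27, 95% interval -0.12 to 1.15) and did not pass the test (limma adjusted p = 0.677, and 0.439 to 0.874 over the processing alternatives). It was positive in both pairs, at 0.17 in pair 1 and 0.86 in pair 2, and was 0.27 without AZ20 replicate 2. The antisense transcript 1600010M07Rik overlaps Wee1 without sharing exonic bases, and had 4 reads or fewer in each library.

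Pkmyt1 (chromosome 17, 23726336 to 23736735, plus strand) encodes the membrane-bound relative of WEE1. Its level was 6.61 and 9.69 TPM in Ctrl and 7.18 and 6.20 TPM in AZ20, on 136 to 228 reads. The groups overlapped, and Ctrl replicate 2 was the highest of the 4. The group means differed by a log2 change of -0.23 (SE 0.27, 95% interval -0.88 to 0.41, limma adjusted p = 0.876), and 0.01 without Ctrl replicate 2. Exons of Pkmyt1 share 314 bases with exons of Paqr4 on the opposite strand. Whether the reads were counted by strand is not given in the sources used here, so reads there could not be told apart, and Paqr4 itself had 4 reads or fewer in each library.

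The summed level of Wee1 and Pkmyt1 was 14.3 and 16.3 TPM in Ctrl and 16.0 and 19.0 TPM in AZ20, above the summed CDC25 level in each library. The ratio of the CDC25 sum to the kinase sum was 0.374 and 0.403 in Ctrl and 0.459 and 0.257 in AZ20. The AZ20 libraries again lay on both sides of the Ctrl libraries. The mean log2 ratio was -1.36 ± 0.0755 in Ctrl and -1.54 ± 0.592 in AZ20 (SD, n = 2 each), a difference of -0.177 (exact two-sided permutation test, p = 1.0), and the difference was 0.241 without AZ20 replicate 2. These ratios are of RNA levels and say nothing of the activity of the enzymes.

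**Figure D4:**
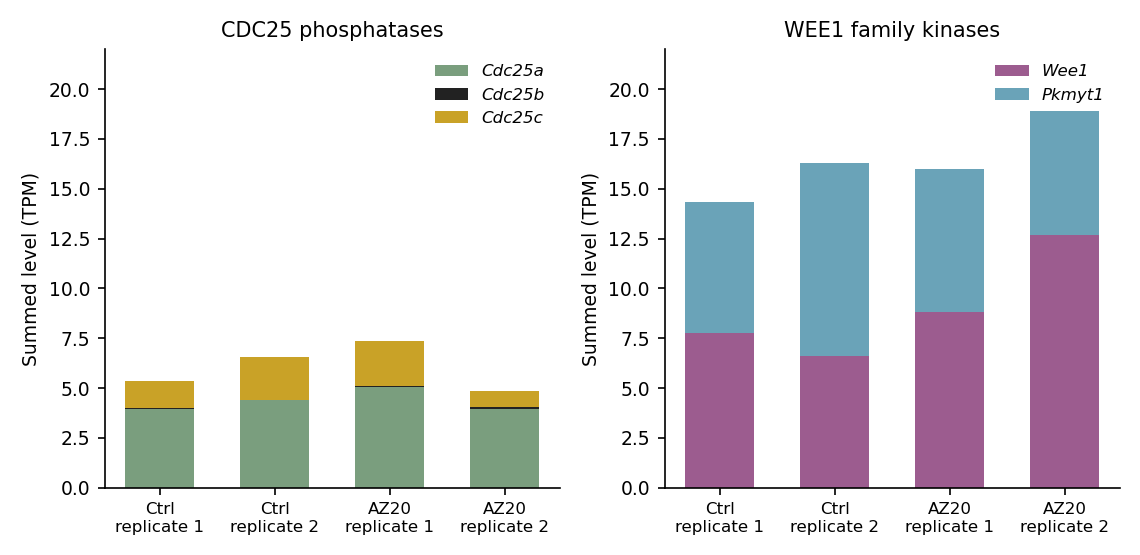
Summed TPM of Cdc25a, Cdc25b and Cdc25c (left) and of Wee1 and Pkmyt1 (right) in each library, as stacked bars on the same linear scale from 0. Cdc25a fills most of the left bars (67.3% to 81.1%), Cdc25b is barely visible, and the right bars are taller in each library.

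Lists of 65 other genes of the pathway, in 5 groups by role, were read from the same fit. They were chosen with earlier results of these data known, so the counts below describe the lists and test nothing. All were in the table, and 62 were tested. Cks2, a CDK-binding subunit, was the only gene of the 62 called higher and 0 were called lower, beside 0.151% of the tested autosomal genes called in either direction. At an unadjusted limma p under 0.05 were 7 of the 62, beside 6.34% of the autosomal genes. The groups did not overlap for 23 of the 62, beside 36.2% of the autosomal genes, and the median log2 change was 0.04. In Ctrl 42 of the 62 had a higher mean TPM than Wee1, and their median was 20.6 TPM in Ctrl and 20.8 TPM in AZ20.

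Of the 14 genes of ATR activation, 0 were called (0.151% of autosomal genes were). An unadjusted limma p under 0.05 was reached by 3 of them (6.34% of autosomal genes), and the median log2 change was 0.25. The groups did not overlap for 10 of the 14, beside 36.2% of the autosomal genes. Atr itself had 93.2 and 85.1 TPM in Ctrl and 80.9 and 87.5 TPM in AZ20, which overlapped (log2 change -0.08, SE 0.17, limma adjusted p = 0.945). Rad1, a subunit of the 9-1-1 clamp, had the highest change, with 47.0 and 80.2 TPM in Ctrl and 133 and 101 TPM in AZ20 (log2 change 0.90, limma adjusted p = 0.346). Atrip, the partner of ATR, had the lowest, with 7.13 and 9.94 TPM in Ctrl and 6.28 and 5.10 TPM in AZ20 (log2 change -0.50, limma adjusted p = 0.685).

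Of the 12 partners of ATM and DNA-PK, 0 were called (0.151% of autosomal genes were). At an unadjusted limma p under 0.05 were 0 (6.34% of autosomal genes), and the median log2 change was -0.10. The groups did not overlap for 4 of the 12, beside 36.2% of the autosomal genes. The extremes were Lig4, the ligase of end joining (0.53, limma adjusted p = 0.657), and Xrcc6, the smaller Ku subunit (-0.33, limma adjusted p = 0.816). Of the 11 partners of Claspin and genes of checkpoint turnover, 0 were called and 0 fell under an unadjusted limma p of 0.05, beside the same shares. The groups did not overlap for 3 of the 11, and the median log2 change was 0.09. Here the extremes were Usp28, a deubiquitinase of the damage response (0.41, limma adjusted p = 0.706), and Btrc, the substrate receptor of a ubiquitin ligase that targets CDC25A, WEE1 and Claspin (-0.39, limma adjusted p = 0.708).

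The list of CDKs, the targets of CDC25 and WEE1, also held cyclins, CDK-binding subunits and CDK inhibitors. Of its 12 genes 11 were tested, with 1 called (0.151% of autosomal genes were). At an unadjusted limma p under 0.05 were 4 (6.34% of autosomal genes), and the median log2 change was 0.42. The groups did not overlap for 4 of the 11, beside 36.2% of the autosomal genes. Cks2 had 408 and 452 TPM in Ctrl and 970 and 1040 TPM in AZ20 (log2 change 1.22, SE 0.14, limma adjusted p = 0.00381). Its AZ20 libraries were both above both Ctrl libraries, but its call was lost without a trend in the variance. The fits without either AZ20 library could not test this call, since the calls of all genes were lost in them. Ccna1, the germ cell cyclin A, had the lowest change, with 17.3 and 14.8 TPM in Ctrl and 17.3 and 6.52 TPM in AZ20 (log2 change -0.54, limma adjusted p = 0.800). Of the 16 inputs to CDC25 and WEE1, such as the 14-3-3 proteins that bind phosphorylated CDC25, 14 were tested. Of these, 0 were called (0.151% of autosomal genes were) and 0 fell under an unadjusted limma p of 0.05 (6.34%). The groups did not overlap for 2 of the 14 (36.2% of autosomal genes). The log2 changes lay between -0.22 (Aurka, limma adjusted p = 0.825) and 0.22 (Mark3, limma adjusted p = 0.897). Sfn, the 14-3-3 sigma gene, named after its values were seen, was at 0 in each library.

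**Figure D5:**
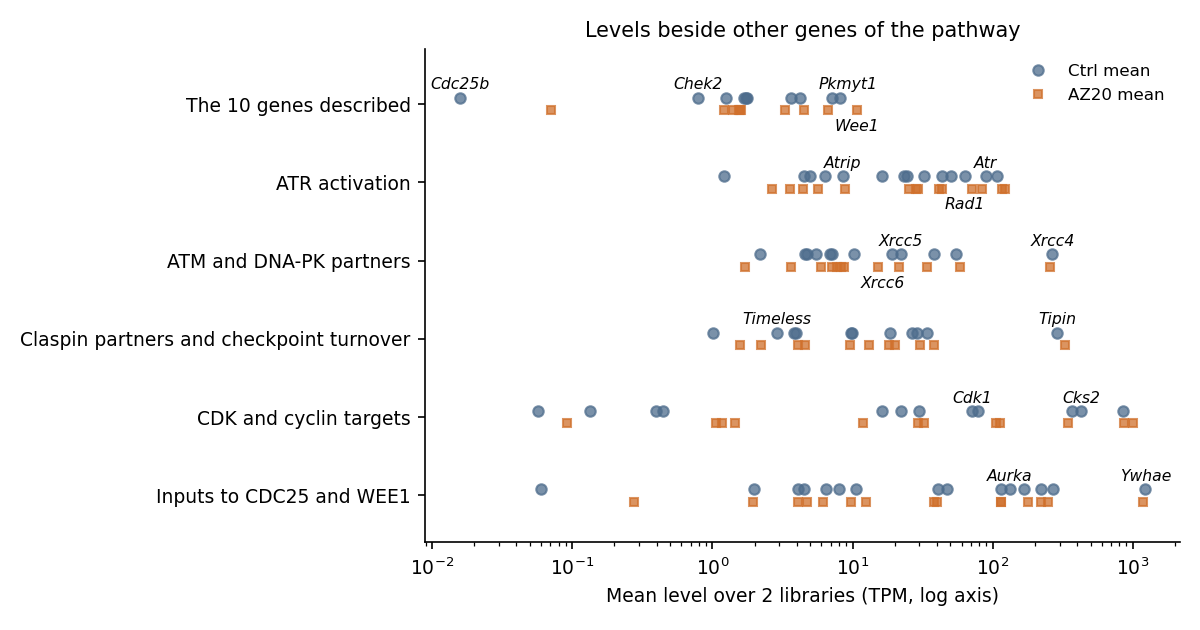
Mean TPM (log axis) of the 10 genes and of the pathway lists in Ctrl (circles, 2 libraries) and AZ20 (squares, 2 libraries), with some genes named after their levels were seen; Sfn, at 0 in each library, cannot be drawn. The 10 genes lie at or below 10.8 TPM, while Atr, Xrcc4, Tipin, Cks2 and Ywhae stand well to the right.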

How the data were processed

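Per the labels and the study's methods, the authors used Trimmomatic 0.39 for trimming, STAR 2.5.4b for unique alignments to GRCm38 and featureCounts 2.0.1 for reads on refGene genes, and deposited TPM computed from the counts. The labels give a culture temperature of 34 °C, which differs from that in the methods. Reads were recovered as whole numbers from the steps between low TPM values, with whole factors set from the gene length (tolerance 3%). For all 16857 genes above 0 (100.0%) a multiple was found that was whole within the rounding of the table, at most 0.2 of a read, and for the 10 genes within 1.1e-07 of a read. The multiple was raised for 2436 genes to match the gene length, so that wholeness is no check of it, and 92 blank lines were left out. The genes and lists were chosen with earlier results of these data known. Genes whose mean TPM exceeded 1 in either group were fitted with limma 3.58.1 (R 4.3.3) on log2(TPM + 1) with an intensity trend in the variance, and p-values were adjusted over all tested genes by the Benjamini-Hochberg method. A call needed a 2-fold change of TPM + 1 and an adjusted p under 0.05. The filter, the limma fit and the call were run on simulated reads with known changes. The recovery of reads, voom, the permutation tests and the counting intervals were not tested in this way. Ratios used exact permutation tests, and counting intervals were exact Poisson intervals.

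Per the methods, both conditions received cells of each mouse. Libraries with the same number also deviated together from their group means (correlation 0.231 over 9936 autosomal genes). The fit had no block, since the methods name none. Named were all 10 genes, Atr, each called pathway gene, and the autosomal gene with the highest and the lowest change of each pathway list. Cks2 was both called and highest. Xrcc4, Xrcc5, Tipin, Timeless, Sfn, Ywhae, Cdk1 and the marker genes were named outside this rule. Alternatives were pseudocounts of 0.1 and 0.01, a common autosomal total, quantile normalization, no filter, a mean TPM above 5, no trend, the replicate block, limma-voom on recovered reads with and without the block, and leaving out each library. No proteins were compared, and promoters of Prkdc, Cdc25c, Wee1 and Pkmyt1 were not analysed here. Python 3.11.15, pandas 2.3.3, numpy 2.4.6, scipy 1.17.1 and matplotlib 3.10.9 were used.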

Additional observations from a re-analysis of the deposited data

How the results depend on the processing

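Under each of the 14 alternatives 0 of the 10 genes were called and 0 of those fitted had an unadjusted limma p under 0.05 (the smallest was 0.0519, for Chek2 without AZ20 replicate 1), and the smallest adjusted p was 0.439, for Wee1 with the replicate block. The replicate block left 0 of the 9 genes fitted and 1 pathway gene (Cks2) called. Over all genes it called 447, beside 240 in the main fit, which had no block. Voom on recovered reads called 326 with the block and 229 without it. Other settings called between 175 (pseudocount 0.01) and 266 (no trend) of all genes, but 0 without AZ20 replicate 1 and 0 without AZ20 replicate 2. Pathway genes called fell to 0 with no trend and ranged from 0 to 1 when 1 library was left out.

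Quantile normalization moved the median log2 change of all genes by -0.14 and turned Prkdc (-0.07), Chek2 (-0.15) and Cdc25a (-0.18) negative, while a common autosomal total moved the median by 0.012. When 1 library was left out, log2 changes ranged from -0.27 to 0.12 for Atm, -0.30 to 0.08 for Chek1, -0.38 to 0.78 for Chek2, -0.50 to 0.15 for Clspn, -0.07 to 0.22 for Cdc25a, -0.58 to 0.26 for Cdc25c and -0.48 to 0.01 for Pkmyt1, so each of these changed sign in some of these fits. Such fits break the replicate pairs, and Chek1 was negative within both pairs (-0.10 and -0.12). Prkdc (0.16 to 0.25) and Wee1 (0.27 to 0.76) stayed positive in these fits. Leaving out a library moved the Cdc25c share difference between -12.2 and 1.67 points, the log2 ratio of CDC25 to WEE1 family between -0.596 and 0.241, and that of Chek2 to Chek1 between -1.19 and 1.81, each reversed only without AZ20 replicate 2. In the fits that left out a library, the lone library of its group was assumed to vary like the other group. The cause of these changes was not tested. Reads were fewest for Cdc25b (at most 4 reads), Chek2 (12 to 61 reads) and Cdc25c (21 to 64 reads). For Chek2 and Cdc25c the Poisson intervals of the AZ20 replicates did not meet, so these replicates differed by more than counting error.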
